A study of Rattus norvegicus with 3 samples.

Results

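The Nrf2 target genes described here are Srxn1, Nqo1, Hmox1, Gclc, Gclm, Txnrd1, Osgin1, Akr1b8 and Gsr. They were taken by symbol from the platform annotation, in which each of the 9 had a single probe set, out of 15037 genes measured through 15049 named probe sets. Total RNA of male Wistar rats, 7 weeks old, was hybridized to Clariom S rat arrays in 3 groups, Tl 2 days, Tl 5 days and control, with 1 array in each. The Tl groups were given thallium sulfate intraperitoneally, the control group double distilled water. The study's methods give 30 mg/kg and its legends call it a single dose, while the series design states 30 mg/kg daily and the treatment label 40 mg/kg daily. The label of the source names spleen, the sample titles kidney. Whether an array held RNA of 1 rat or a pool is not given in the sources used here, and rats that died before the fifth day belonged to the study's Tl 5 days group according to the methods. With 1 array per group no difference was tested, and the variation among rats is unknown. Unless another setting is named, counts of higher or lower genes below are of genes past 2-fold on the deposited log2 scale.

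Nrf2, encoded by Nfe2l2, is a transcription factor that Keap1 holds in the cytoplasm and directs to degradation. Electrophiles and oxidants modify Keap1, so that Nrf2 reaches the nucleus, pairs with a small Maf protein and binds antioxidant response elements at genes of glutathione and thioredoxin metabolism, heme breakdown and detoxication. Nrf2 is not the nuclear respiratory factor NRF1 of mitochondrial biogenesis, despite the similar name.

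The 9 genes did not move as 1 group. Akr1b8, Srxn1, Hmox1, Nqo1 and Txnrd1 were over 2-fold higher on the Tl 2 days array than on the control array, Osgin1 was over 2-fold lower, and Gsr, Gclc and Gclm lay within 2-fold. In the Tl 5 days group 4 of them (Akr1b8, Srxn1, Hmox1 and Nqo1) were over 2-fold higher than on the control array, and Osgin1, Gclm and Gclc were over 2-fold lower. Past 2-fold among all 15037 genes were 6.03% upward and 4.65% downward on the Tl 2 days array, and 5.37% and 4.87% on the Tl 5 days array. As deposited, 906 genes were past 2-fold upward and 699 downward at 2 days, 807 and 732 at 5 days. Centred arrays gave 752 and 874 at 2 days, and values relative to Gapdh gave 375 and 2792 at 2 days, 310 and 2456 at 5 days. The median log2 difference of the 9 genes from control was 1.36 on the Tl 2 days array and 0.43 on the Tl 5 days array, where the median of all genes was 0 in each. Of all genes 19.8% had exactly the control value on the Tl 2 days array and 20.2% on the Tl 5 days array. How these equal values arose was not tested. Relative to Gapdh on the same array the sign of the Tl 5 days median of the 9 genes changed, to -0.21. Both comparisons used the same control array and are not independent.

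**Figure D1:**
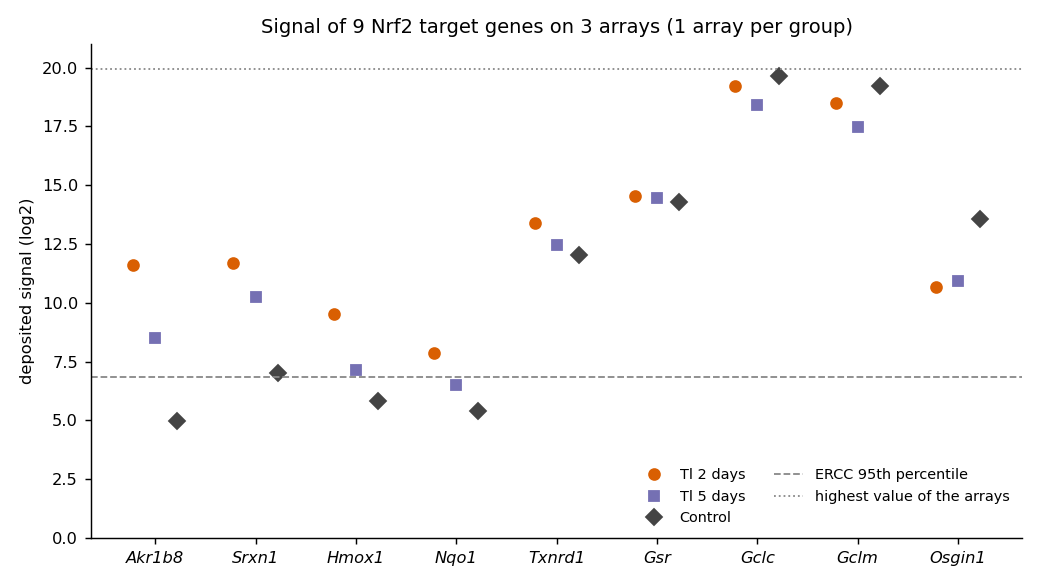
Deposited log2 signal of each of the 9 genes (x axis) on the Tl 2 days, Tl 5 days and control arrays, 1 point per array. The dashed line marks the 95th percentile of the ERCC spike-in probe sets at 6.83. The dotted line marks the highest value of the arrays at 19.93. On the control array Akr1b8, Hmox1 and Nqo1 lie below the dashed line, and Gclc and Gclm (19.63 and 19.21) lie just below the dotted line. Their values in the Tl groups are lower, down to 17.48 for Gclm on the Tl 5 days array.

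Akr1b8 encodes an aldo-keto reductase that reduces aldehydes, and Srxn1 encodes sulfiredoxin, which restores overoxidized peroxiredoxins. Osgin1 encodes an oxidative stress induced growth inhibitor, and Gclm the modifier subunit of glutamate-cysteine ligase. These 4 genes had the largest differences in each direction on the Tl 5 days array, and the sequences around their transcription start are given for that reason. RefSeq promoter windows (GRCr8, 250 bases before to 50 after a listed start) were found for 7 of the 9 genes, with 2 windows for Txnrd1, and not for Hmox1 and Gsr. The start listed for Osgin1 lies inside the gene model. All 4 windows shown are on the plus strand, at chr4:63964171-63964470 for Akr1b8, chr3:161064562-161064861 for Srxn1, chr19:64393651-64393950 for Osgin1 and chr2:213031885-213032184 for Gclm. Capitals mark letters that match the antioxidant response element core, searched as TGACNNNGC and TGAGNNNGC on both strands, so that a match on the minus strand is read here from its other strand.
Akr1b8: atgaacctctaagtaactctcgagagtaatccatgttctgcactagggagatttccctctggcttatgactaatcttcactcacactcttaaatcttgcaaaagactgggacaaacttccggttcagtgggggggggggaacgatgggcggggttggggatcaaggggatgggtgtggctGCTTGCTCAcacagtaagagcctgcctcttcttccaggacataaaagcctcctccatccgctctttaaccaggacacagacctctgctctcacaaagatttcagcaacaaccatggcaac
Srxn1: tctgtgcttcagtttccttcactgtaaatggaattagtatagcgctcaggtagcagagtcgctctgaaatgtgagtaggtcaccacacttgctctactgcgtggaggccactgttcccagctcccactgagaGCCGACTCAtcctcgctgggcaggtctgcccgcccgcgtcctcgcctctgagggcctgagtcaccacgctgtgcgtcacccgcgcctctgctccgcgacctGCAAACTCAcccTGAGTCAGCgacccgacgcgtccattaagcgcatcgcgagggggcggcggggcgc
Osgin1: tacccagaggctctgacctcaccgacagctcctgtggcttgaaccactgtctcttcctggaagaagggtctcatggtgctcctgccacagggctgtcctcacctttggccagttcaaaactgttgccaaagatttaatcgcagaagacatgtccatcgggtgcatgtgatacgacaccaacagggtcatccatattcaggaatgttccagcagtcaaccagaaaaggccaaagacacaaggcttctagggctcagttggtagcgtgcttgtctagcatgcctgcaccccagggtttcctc
Gclm: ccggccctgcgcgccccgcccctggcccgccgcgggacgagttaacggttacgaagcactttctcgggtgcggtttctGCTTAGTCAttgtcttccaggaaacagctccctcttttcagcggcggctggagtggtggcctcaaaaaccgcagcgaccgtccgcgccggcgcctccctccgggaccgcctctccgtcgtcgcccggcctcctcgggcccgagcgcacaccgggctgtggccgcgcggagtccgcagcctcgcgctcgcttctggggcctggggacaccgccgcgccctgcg

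Of the 8 windows of the 7 genes, 4 held a match, and 27.1% of all 33469 promoter windows of the same length held at least 1 match to either core. TGACNNNGC was found in 12.1% and TGAGNNNGC in 17.2% of all windows. Srxn1 had 3 matches. With the start counted as 0, TGAGTCAGC spanned -5 to 3 on the plus strand and overlapped the AP-1 type motif TGANTCA, which 7.33% of all windows held on either strand. The others, TGAGTTTGC and TGAGTCGGC, lay on the minus strand at -17 to -9 and -118 to -110. Akr1b8 had the match TGAGCAAGC (-70 to -62), Gclm TGACTAAGC (-172 to -164) and the window of Txnrd1 at chr7:22755855-22756154 TGACAAAGC (-78 to -70), all on the minus strand. The windows of Osgin1, Gclc and Nqo1 and the other window of Txnrd1 held no match. Matches thus stood at Srxn1 and Akr1b8, which were over 2-fold higher than control in both Tl groups. They also stood at Txnrd1, over 2-fold higher on the Tl 2 days array only, and at Gclm, over 2-fold lower on the Tl 5 days array only. Sequence outside the windows was not searched, so a window without a match does not show that a gene lacks an element.

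Akr1b8 had log2 values of 11.59 on the Tl 2 days array, 8.49 on the Tl 5 days array and 4.95 on the control array. The control value was dim, meaning below the 95th percentile of the 63 ERCC spike-in probe sets (6.83 on each array), and 11 of the 63 reached or exceeded it. The log2 differences from control were 6.64 (99.8-fold) and 3.54 (11.6-fold). By these it ranked 7 from the top among 15037 genes on the Tl 2 days array and 45 on the Tl 5 days array. With dim values raised to 6.83, the differences were at least 27.1-fold and at least 3.15-fold. Such bounds, here and below, hold only for this level, which is not a measured background. Of the other aldo-keto reductases of the same subfamily, Akr1b10 had log2 values of 10.07, 11.01 and 8.87 in the Tl 2 days, Tl 5 days and control groups, so it was higher on the Tl 5 days array than on the Tl 2 days array, the other order from Akr1b8. Its difference of 2.14 from control at 5 days exceeded the lower bound for Akr1b8 (1.66), so which of them differed more at 5 days is not established. Akr1b1, the aldose reductase of the polyol pathway, differed from control by 0.12 and -0.05, and Akr1b7 was below 6.83 on all 3 arrays. These genes are close copies, and how far their probe sets share targets is not known.

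Srxn1 had log2 values of 11.67 on the Tl 2 days array, 10.25 on the Tl 5 days array and 7.0 on the control array. The control value was just above the ERCC 95th percentile and below the highest ERCC value of 9.28. The negative control probe sets had a median of 6.56 and a 95th percentile of 10.94 on the control array, and the Srxn1 control value exceeded 58.8% of them, so the size of its folds is uncertain too. The differences of 4.67 and 3.25 corresponded to 25.4-fold and 9.48-fold, ranks 24 and 60 from the top. Among 1153 negative control probe sets, which served as a yardstick for differences between these arrays, 1 was as far above control on the Tl 2 days array and 4 were on the Tl 5 days array. For Akr1b8 these numbers were 0 and 4. The negative control probe sets were not matched to the signal of each gene. The control values of Txnrd1, Osgin1, Gclc and Gclm lay above their 95th percentile.

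Hmox1 encodes heme oxygenase 1, the inducible enzyme that splits heme into biliverdin, carbon monoxide and iron. It had log2 values of 9.53 on the Tl 2 days array, 7.15 on the Tl 5 days array and 5.84 on the control array, the last a dim signal. The differences of 3.69 and 1.31 were 12.9-fold and 2.47-fold, or at least 6.51-fold and at least 1.25-fold with dim values raised. Of the negative control probe sets 2 were as far above control on the Tl 2 days array but 71 on the Tl 5 days array. Hmox2, the constitutive paralog, differed from control by -0.41 and 0.03.

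Hmox1 is also active in macrophages, and markers of that cell type had higher values in the Tl groups. Of 15 macrophage markers 6 were over 2-fold higher than control on the Tl 2 days array and 8 on the Tl 5 days array, 0 were lower, and the median log2 difference was 0.95 and 1.37. Of all genes 6.03% and 5.37% were over 2-fold higher on these arrays. Cd68 differed by 1.55 and 2.06, Mrc1 by 1.42 and 3.25, Lyz2 by 0.72 and 2.05 and Cd14 by 0.88 and 2.58, whereas Adgre1, Cd163 and Marco had the same dim value on all 3 arrays. The median log2 level of the list was 7.67, 7.62 and 6.31 in the Tl 2 days, Tl 5 days and control groups, with single markers from 4.10 to 17.81 over the arrays. Of the 15 markers 6, 5 and 11 were dim in these groups, so the counts rest in part on dim values and are uncertain. Cd14 was dim on both the Tl 2 days array and the control array. The part of these cells in the Hmox1 values was not tested. In a whole tissue, fewer cells of a type and less RNA per cell cannot be told apart.

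Nqo1 encodes a quinone reductase that uses NADH or NADPH. It had log2 values of 7.88 on the Tl 2 days array, 6.49 on the Tl 5 days array and 5.40 on the control array. The Tl 5 days value and the control value were both dim, so that only the Tl 2 days difference of 2.48 (5.59-fold) had a lower bound, at least 2.07-fold. The Tl 2 days value itself was below the highest ERCC value and exceeded 72.7% of the negative control probe sets. This bound is therefore uncertain too. The Tl 5 days difference was 1.09, and 108 of the 1153 negative control probe sets were as far above control in that comparison, against 4 in the Tl 2 days comparison. Its relative Nqo2, which uses another cosubstrate, had log2 values of 10.76, 10.88 and 11.81 in the Tl 2 days, Tl 5 days and control groups, differences of -1.05 and -0.93.

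Txnrd1 encodes the cytosolic thioredoxin reductase, a selenoprotein. It had log2 values of 13.40 on the Tl 2 days array, 12.46 on the Tl 5 days array and 12.04 on the control array. The difference of 1.36 (2.57-fold) on the Tl 2 days array passed 2-fold, with 56 negative control probe sets as far above control, but relative to Gapdh it was 0.71 and did not pass. The difference of 0.43 on the Tl 5 days array did not pass and changed sign relative to Gapdh (-0.21). Txnrd2, the mitochondrial form, differed from control by -0.32 and 0.14, and Txnrd3 was dim on all arrays.

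Gsr encodes glutathione reductase, which returns oxidized glutathione to its reduced form. Of the 9 genes it had the smallest differences from control, with log2 values of 14.54 on the Tl 2 days array, 14.47 on the Tl 5 days array and 14.30 on the control array. The differences of 0.23 and 0.16 were negative relative to Gapdh (-0.42 and -0.47). Gapdh itself was 0.65 and 0.63 higher than control.

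Gclc and Gclm encode the catalytic and the modifier subunit of glutamate-cysteine ligase, the rate-limiting enzyme of glutathione synthesis. Gclc had log2 values of 19.20 on the Tl 2 days array, 18.42 on the Tl 5 days array and 19.63 on the control array. Gclm had 18.50, 17.48 and 19.21 in the same groups. Both were thus lower in the Tl groups, and lower on the Tl 5 days array than on the Tl 2 days array. The differences from control were -0.43 and -1.21 for Gclc and -0.71 and -1.73 for Gclm, ranks 498 and 249 from the bottom on the Tl 5 days array. The highest value of the control array was 19.93, and 8 of the 15037 genes, Gclc and Gclm among them, had a control value of 19 or more, so both probe sets were near the upper end of the scale. What that end does to differences was not tested. Among the negative control probe sets 57 and 23 were as far below control as Gclc and Gclm on the Tl 5 days array. On the Tl 2 days array 340 and 212 were. The control values of Gclc and Gclm exceeded 99.8% and 99.7% of these probe sets. Such counts therefore give no noise rate at that signal.

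Osgin1 went in the opposite direction from Akr1b8 and Srxn1 at both times. It had log2 values of 10.65 on the Tl 2 days array, 10.92 on the Tl 5 days array and 13.54 on the control array. It was 7.39-fold lower than control on the Tl 2 days array and 6.15-fold lower on the Tl 5 days array, ranks 52 and 103 from the bottom among 15037 genes. All 3 values were above the highest ERCC value. Of 1153 negative control probe sets 6 and 9 were as far below control. The Osgin1 control value exceeded 98.1% of them, so they are no matched yardstick for it.

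Genes that are strongly expressed in the proximal tubule were compared beside these lower values. Of 15 markers of the proximal tubule 4 were over 2-fold lower and 0 higher on the Tl 2 days array, 3 were lower and 5 higher on the Tl 5 days array. Their median log2 difference was -0.41 and 0.04. Of all genes 4.65% were lower and 6.03% higher on the Tl 2 days array, 4.87% and 5.37% on the Tl 5 days array. Slc22a2 differed by -2.20 and -4.31 and Gatm by -1.05 and -2.55, while Slc5a12 differed by -0.03 and 3.07 and Pck1 by -0.03 and 3.0. The part of tubule cells in the values of Gclc, Gclm and Osgin1 was not tested.

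**Figure D2:**
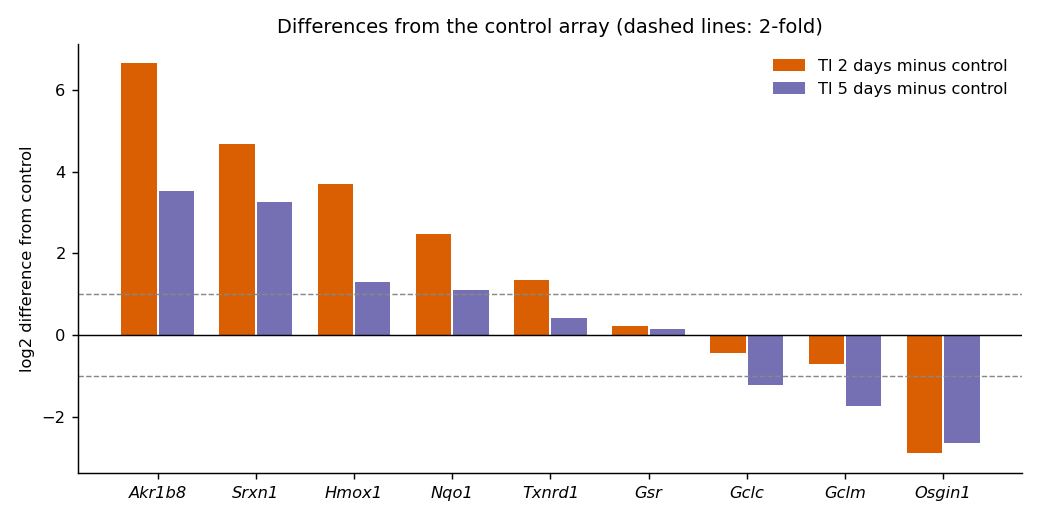
Log2 difference from the control array (y axis) of each of the 9 genes, Tl 2 days and Tl 5 days side by side, ordered by the Tl 2 days difference. Dashed lines mark 2-fold; the bars run from 6.64 (Akr1b8) to -2.89 (Osgin1) on the Tl 2 days array and from 3.54 to -2.62 on the Tl 5 days array.

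The arrays of both Tl groups were also compared with each other, without control. Of the 9 genes 8 had a lower value on the Tl 5 days array and Osgin1 alone a higher one, by 0.27. Of all genes 38.4% were lower and 38.3% higher. Gsr differed by only -0.07, with the opposite sign (0.0019) once the gene medians of the arrays were made equal. Over 2-fold lower were 5 of the 9 genes, namely Akr1b8 (-3.11), Hmox1 (-2.38), Srxn1 (-1.42), Nqo1 (-1.39) and Gclm (-1.01), and 0 were over 2-fold higher. Gclm passed only narrowly and was within 2-fold on centred arrays (-0.94) and relative to Gapdh (-0.997). In the background 3.07% of all genes were over 2-fold lower and 2.21% over 2-fold higher. Akr1b8 ranked 27 and Hmox1 72 from the bottom in this comparison. The median log2 difference of the 9 genes was -1.01. Akr1b8, Srxn1 and Hmox1 were thus lower on the Tl 5 days array than on the Tl 2 days array while above control on both. For Nqo1 the Tl 5 days and control values were both dim, so their order is not established. Gclc and Gclm were lower on the Tl 5 days array as well, but below control on both.

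**Figure D3:**
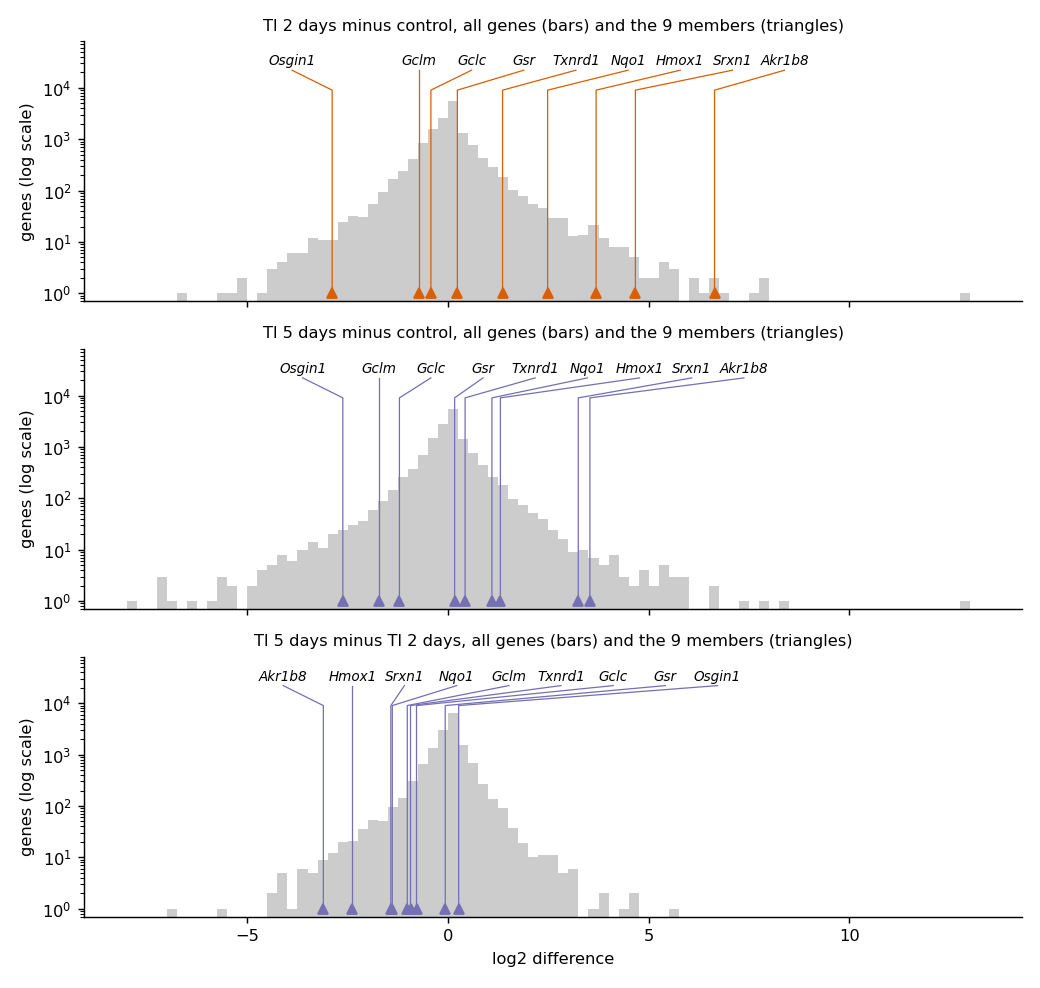
Histograms of the log2 differences of all 15037 genes (grey, number of genes on a log axis) in the 3 comparisons of arrays, with the 9 genes as triangles. Akr1b8 and Srxn1 lie in the upper tail and Osgin1 in the lower tail of both comparisons with control, and 8 of the 9 triangles lie below 0 between the Tl arrays.

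Some counts in the comparisons with control depended on the setting. With dim values raised to the ERCC 95th percentile, 5 genes were again over 2-fold higher on the Tl 2 days array (background 4.4%), but 2, Akr1b8 and Srxn1, were on the Tl 5 days array (background 4.13%). Relative to Gapdh, Txnrd1 dropped out on the Tl 2 days array, which left 4 (background 2.49%). The count on the Tl 5 days array was 2, the same genes, also at a 3-fold limit (background 2.18%) and relative to Gapdh (background 2.06%). The count of lower genes on the Tl 2 days array was 2, Osgin1 and Gclm, at a 1.5-fold limit (background 10.7%), and 3, with Gclc, relative to Gapdh (background 18.6%).

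Among the regulators of the pathway, Nfe2l2 had log2 values of 12.10 on the Tl 2 days array, 12.76 on the Tl 5 days array and 11.12 on the control array, differences of 0.98 (1.97-fold) and 1.64 (3.12-fold). It was thus highest on the Tl 5 days array, where 8 of the 9 target genes were lower than on the Tl 2 days array. Keap1 differed by 0.17 and -0.04, and its ubiquitin ligase partners Cul3 and Rbx1 by -0.20 and -0.18 and by 0.25 and 0.02. Bach1, a repressor that competes for the same elements and is released by heme, differed by 1.13 and 0.58. Sqstm1, the autophagy receptor p62 that binds Keap1, differed by 0.97 and 1.38. Among the small Maf genes, Maff, dim on the control array at 5.78, differed by 0.79 and 1.38, Mafg by 0.30 and 0.00, and Mafk had the same value of 8.55 on all arrays. Equal values were common among all genes (19.8% and 20.2% against control), so they are not read here as measured constancy. Gsk3b and Btrc, which take part in a Keap1-independent route of Nrf2 degradation, differed by 0.20 and -0.10 and by -0.06 and 0.00. Of 11 regulators measured, 1 was over 2-fold higher on the Tl 2 days array and 3 on the Tl 5 days array, and 0 were lower. The median differences were 0.25 and 0.00. Here and for the lists that follow, the shares of all genes past 2-fold were 6.03% upward and 4.65% downward on the Tl 2 days array. On the Tl 5 days array they were 5.37% and 4.87%. A count of 0 or 1 in a list this short is near those shares.

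A further list held 43 genes known as Nrf2 targets besides the 9, of which 39 were measured and some stand in other lists too. Over 2-fold higher than control were 10 in each Tl group, against 6.03% of all genes on the Tl 2 days array and 5.37% on the Tl 5 days array. Over 2-fold lower were 2 on the Tl 2 days array and 3 on the Tl 5 days array, against 4.65% and 4.87% of all genes. The median log2 difference was 0.40 and 0.38. Abcc2, an export pump for glutathione conjugates, had log2 values of 13.58, 15.39 and 9.90 in the Tl 2 days, Tl 5 days and control groups, so that it was higher on the Tl 5 days array than on the Tl 2 days array. Gpx2, a glutathione peroxidase, had 8.55, 7.17 and 5.17 and followed the order of Akr1b8. Slc7a11, the cystine transporter, had 7.89, 7.79 and 5.00. For both the control value was dim, and the differences were at least 3.29-fold and 1.27-fold for Gpx2 and at least 2.09-fold and 1.94-fold for Slc7a11. Gstp1, a glutathione transferase, differed by 2.67 and 2.26 from a control value of 12.06.

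Of 20 other measured genes of the glutathione system 3 were over 2-fold higher and 5 lower on the Tl 2 days array, and 6 were higher and 5 lower on the Tl 5 days array. Their median log2 difference was -0.08 and 0.20. Gss, which completes glutathione synthesis after glutamate-cysteine ligase, had log2 values of 13.85 on the Tl 2 days array, 12.21 on the Tl 5 days array and 15.69 on the control array. All 3 genes of the synthesis steps, Gclc, Gclm and Gss, were hence lower than control in each Tl group and lower on the Tl 5 days array than on the Tl 2 days array. On the Tl 2 days array, however, Gclc and Gclm were within 2-fold of control. Anpep, a brush border peptidase that acts in glutathione breakdown, differed by -2.42 and -3.43.

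Of 15 other genes of the thioredoxin system 2 were over 2-fold higher and 1 lower on the Tl 2 days array, and 3 were higher and 2 lower on the Tl 5 days array. Txn1, the cytosolic thioredoxin and substrate of Txnrd1, differed by 1.15 and 0.90, and Txnip, its inhibitor, by 1.25 and 1.62. Msra, a methionine sulfoxide reductase, differed by -1.22 and -1.98. Sesn2, a stress inducible sestrin, had 10.52, 12.58 and 10.78 in the Tl 2 days, Tl 5 days and control groups.

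In the supply of NADPH, on which Gsr, Txnrd1 and Nqo1 draw, 2 of 14 measured genes were over 2-fold higher and 2 lower on the Tl 2 days array, and 1 was higher and 4 lower on the Tl 5 days array. Me1, the cytosolic malic enzyme, differed by 0.08 and -1.77, Idh2 by -1.56 and -1.46, Aldh1l1 by -1.39 and -1.78, and Mthfd2, dim at 5.10 on the control array, by 2.72 and 1.98. Of 15 other genes of heme synthesis, breakdown and iron storage 0 were over 2-fold higher and 2 lower in each Tl group. These were Blvra, the biliverdin reductase that follows heme oxygenase, at -1.75 and -1.17, and Abcg2 at -1.92 and -1.48. Alad and Slc40a1, the iron exporter ferroportin, differed by -0.52 and -0.92 and by 0.27 and 0.87.

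Of 14 other aldo-keto reductases 2 were over 2-fold higher and 1 lower in each Tl group, with Akr1c1 at 0.97 and 1.74 and Akr7a3 at -0.09 and -1.57. Akr1b7, counted as higher at 2 days (1.29), was dim throughout. Of 10 genes of superoxide and hydrogen peroxide metabolism 1 was over 2-fold higher in each Tl group, Sod3, the extracellular superoxide dismutase, at 1.75 and 3.01. Over 2-fold lower were 2 on the Tl 2 days array and 1 on the Tl 5 days array, among them Nox4, a superoxide or peroxide producing oxidase, at -1.07 and -2.22. Cat, the catalase gene, differed by -0.65 and -0.94.

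**Figure D4:**
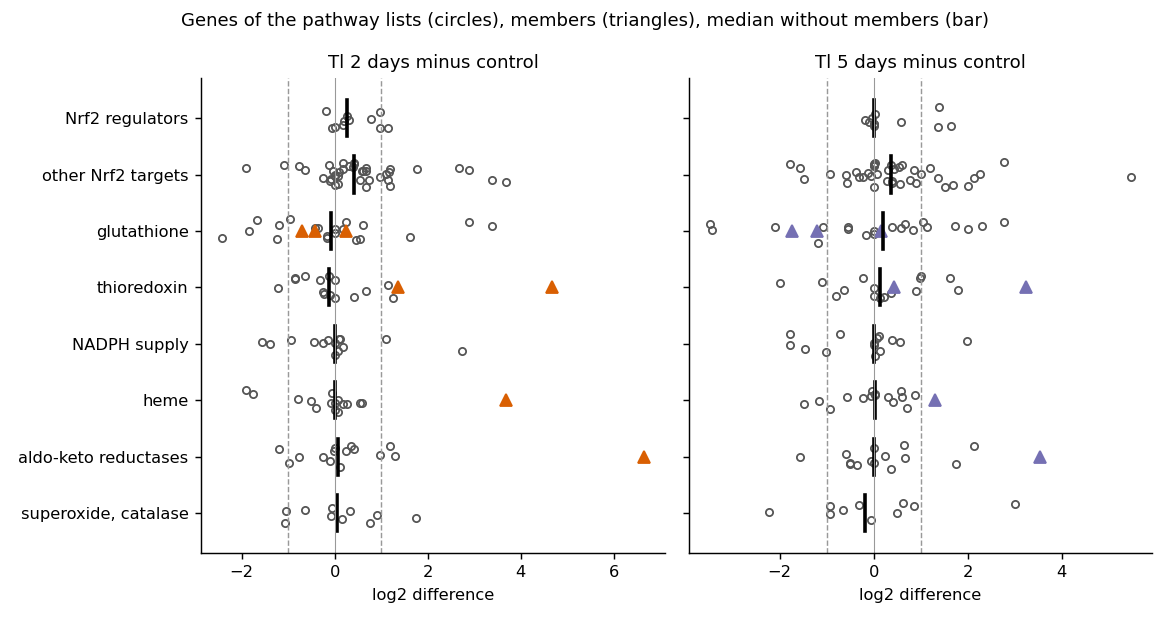
Log2 differences from the control array (x axis) of the genes of 8 pathway lists, Tl 2 days on the left and Tl 5 days on the right, with each gene as a circle, the 9 genes as triangles where a list holds them, and the median without them as a bar. Dashed lines mark 2-fold; Akr1b8, Srxn1 and Hmox1 lie to the right of the other genes of their lists on the Tl 2 days array, and the bars lie between -0.18 and 0.40.

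Over all 3 arrays the 5 genes with differences nearest to the medians of the 9 genes (1.36 and 0.43) were Rasa3, Dkc1, Ccn1, Vcl and Bhlhe40, at distances of 0.03 to 0.07 on the log2 scale among 8092 genes compared. Both medians are the values of Txnrd1, so the likeness is to that gene and not to the 9 as a group. It rests on 2 differences that share a control array.

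The tissue and the injury were checked on the same arrays. On the control array the 15 proximal tubule markers had log2 values from 12.08 to 18.82, while all 9 measured markers of spleen B and T cells were below 6.83 on every array, with a median difference of 0 in both Tl groups. Among these, Cd3g differed by 0.97 and 0.14, Cd3e by 0.96 and 0.24, Cd247 by -0.49 and -0.25 and Cd22 by 0.14 and -0.44. Havcr1, Lcn2, Clu, Spp1 and Timp1, genes that mark tubular injury, were all over 2-fold higher than control in each Tl group. Of these 5 genes 3 were dim on the control array, namely Havcr1, Lcn2 and Timp1. With dim values raised, Timp1 did not pass 2-fold on the Tl 5 days array (at least 1.28-fold), while Havcr1 and Lcn2 still passed in each Tl group. The negative control probe sets also moved between the arrays, with an SD of the log2 difference from control of 0.86 on the Tl 2 days array and 0.88 on the Tl 5 days array. Of them, 8.33% were over 2-fold higher and 11.6% lower on the Tl 2 days array, 10.9% higher and 7.89% lower on the Tl 5 days array.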

How the data were processed

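Total RNA of rat kidney was hybridized to 3 Clariom S rat arrays, 1 each for Tl 2 days, Tl 5 days and control, grouped by sample title. The authors deposited 1 log2 signal per probe set and array and used Transcriptome Analysis Console; its version, the summarization and the normalization are not given in the sources used here, so how they bear on differences between arrays is unknown. The log2 base was read from the values, whose maximum is 19.93 on each array, or 999952 on the linear scale.

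The table held 24834 probe sets. The platform annotation gave 15049 of them a single symbol, 0 several, and 9785 were not named here. All 15049 gene IDs were found in RefSeq under the same symbol. Probe sets of a gene were averaged (10 genes), leaving 15037 genes. Differences of log2 values, genes past 2-fold, medians and ranks were computed with Python 3.11.15, numpy 2.4.6 and pandas 2.3.3, and figures with matplotlib 3.10.9. The counting code was run on simulated arrays with planted differences and less noise than the negative control probe sets show here. That run checks the code only and not the counts on these arrays. With 1 array per group there is no replicate error and no p-value, and precision is limited by the number of arrays. A value below the 95th percentile of 63 ERCC probe sets is called dim. Their median, 95th percentile and highest value are the same on all arrays, so this is a fixed level and not a measured background. The negative control probe sets had medians of 6.42 to 6.62 and 95th percentiles of 10.94 to 11.04 on the arrays. Lower bounds taken from the ERCC level are thus not sure minima.

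The 9 genes and the lists (regulators, other Nrf2 targets, glutathione, thioredoxin, NADPH, heme, aldo-keto reductases, superoxide and catalase, proximal tubule, macrophage, neutrophil, erythroid, spleen lymphocyte and injury markers) were chosen with earlier results of these data known. Named are the 9 genes, all measured regulators, paralogs of Akr1b8, Txnrd1, Hmox1 and Nqo1, the 4 genes of each other list with the largest absolute difference from control, and the 5 nearest in pattern. Gapdh, Timp1, Adgre1, Cd163, Marco and Hbb-b1 were named besides, after their values were seen. Promoter sequences are from RefSeq (GRCr8). The alternatives were quantile normalization, centring on the gene median, values relative to Gapdh, raising low values to the 20th percentile of genes or the ERCC 95th percentile, dropping genes that stay under the 40th percentile on all arrays, keeping for each gene its probe set of highest mean, and limits of 1.5-fold and 3-fold.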

Additional observations from a re-analysis of the deposited data

Results flagged for a closer look

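A different sign of the difference from control in the 2 Tl groups was found for some genes and lists named above, and for 0 of the 9 target genes. With 1 array per group this difference was not tested. Values are given for Tl 2 days and then Tl 5 days. Over 2-fold at 1 of the times were Sesn2 (-0.26 and 1.80), Me1 (0.0817 and -1.77), Pck1 (-0.0283 and 3.0), Slc5a12 (-0.034 and 3.07) and S100a8 (-0.20 and 1.46). Within 2-fold at both times were Keap1 (0.17 and -0.0449), Gsk3b (0.20 and -0.10), Hmox2 (-0.41 and 0.03), Txnrd2 (-0.32 and 0.14), Akr1b1 (0.12 and -0.0496) and Cd22 (0.14 and -0.44). The medians of the thioredoxin list (-0.10 and 0.21), of the superoxide and catalase list (0.0543 and -0.18) and of the proximal tubule markers (-0.41 and 0.04) differed in sign as well.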

How the results depend on the processing

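Of 57 values of the counts and medians of the 9 genes under the alternatives, 50 lay within the tolerance of 1.5-fold. Part of the 50 could not have moved and are no check. The choice of probe set, the filter at the 40th percentile and the floor at the 20th percentile left every value of the 9 genes unchanged. Among the 57 values a reversal past 2-fold was seen in 0. Counts could not reverse, nor could the Tl 5 days median against control, which was within 2-fold. The exceptions to the tolerance follow, and the cause was not tested. The count of genes over 2-fold higher on the Tl 5 days array, 4 in the report, was 2 with a floor at the ERCC 95th percentile, 2 at a 3-fold limit and 2 relative to Gapdh. The count of lower genes on the Tl 2 days array, 1 in the report, was 2 at a 1.5-fold limit and 3 relative to Gapdh. Relative to Gapdh the medians were 0.71 on the Tl 2 days array and -0.21 on the Tl 5 days array, since all differences shift by -0.65 and -0.63. Of 189 values of single genes 24 moved by more than the tolerance and 4 changed sign, those of Gsr (3) and Txnrd1 (1), none of them past 2-fold. Centring shifted the median of all genes by -0.12 on the Tl 2 days array, where 752 genes were then over 2-fold higher and 874 lower, against 906 and 699 as deposited. Relative to Gapdh, 375 were higher and 2792 lower, and on the Tl 5 days array 310 and 2456, against 807 and 732. Each of the 9 genes had 1 probe set, so the choice of probe set did not bear on them. No paired analysis was possible because each group holds 1 array, and no array could be left out for the same reason. The folds of Akr1b8, Srxn1, Hmox1 and Nqo1 start from dim or nearly dim control values and are uncertain in size.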

Other observations

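Blood cell genes moved on the same arrays. Of the measured hemoglobin genes, Hba-a1 and Hbb had log2 values of 14.58 and 14.09 on the Tl 2 days array, 10.86 and 10.83 on the Tl 5 days array, and 15.55 and 14.91 on the control array. Hbb-b1, a further beta globin gene, had 9.08, 8.85 and 9.10 in the Tl 2 days, Tl 5 days and control groups, differences of -0.02 and -0.24. Of 7 measured erythroid markers 1 was over 2-fold lower than control on the Tl 2 days array, Slc4a1 (-3.60), which intercalated cells of the collecting duct also express, and 3 were on the Tl 5 days array, with Slc4a1 at -2.53. Ahsp, the chaperone of alpha hemoglobin, was dim on all arrays, with differences of -0.51 and -0.26. Heme oxygenase 1 acts on heme, and whether the hemoglobin values and those of Hmox1 are related was not tested. Of 8 measured neutrophil markers 0 were over 2-fold higher on the Tl 2 days array and 2 on the Tl 5 days array, S100a8 (1.46) and S100a9 (1.28). Fcnb differed by 0.89 and 0.29 and Cxcr2 by 0.00 and 0.68, with all 8 dim in the Tl 5 days and control groups.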
